A study of Homo sapiens with 6 samples.

Results

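TRAIL, the protein of TNFSF10, is a ligand of the tumor necrosis factor family that can trigger apoptosis. It binds the death receptors encoded by TNFRSF10A (DR4) and TNFRSF10B (DR5), and it also binds the decoy receptors encoded by TNFRSF10C and TNFRSF10D, which lack a working death domain. A bound death receptor recruits the adaptor FADD and the initiator caspases CASP8 and CASP10, and CFLAR (cFLIP), a relative of CASP8 without protease activity, holds that step in check. TRAIL transcription is known to respond to interferon. These 9 genes were taken from a table of 19899 genes by their symbols, and all 9 were present. They were selected on the role of their proteins, with the log2 fold changes of BRG1 against Control, among them those of TNFSF10 and TNFRSF10D, already known. For that reason their values are given as a description, and the p-values only place each gene within the fit over all genes.

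The data come from COV434 cells, an established ovarian line that the study counts among its lines of SCCOHT, the hypercalcemic small cell carcinoma of the ovary that lacks BRG1. BRG1 is the protein of SMARCA4 and serves SWI/SNF, a complex that remodels chromatin, as its ATPase. Parental cells received a plasmid with puromycin resistance (pBABE-puro) together with either pCDNA3-neo (Control, n = 3) or PBJ5-BRG1 (BRG1, n = 3), met puromycin at 2 to 3 µg/ml after 24 hours and were harvested 3 days later as RNA of the whole selected culture. Both groups therefore carry puromycin selection, and because the vector backbones differ between the groups, an effect of the backbone and of BRG1 cannot be told apart. In bulk RNA, fewer expressing cells and less RNA per cell also cannot be told apart.

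The 6 libraries held 29699741 to 63613710 estimated counts, with the smallest total in BRG1 replicate 3. All levels below are counts per 1000000 counts of a library (CPM), after scaling by edgeR's TMM factors. SMARCA4, which includes plasmid transcripts in BRG1 samples, was at 31.6 to 36.7 CPM in Control and 1720 to 2320 CPM in BRG1 samples. SMARCA2, the other ATPase gene, was at 0.082 to 0.508 CPM in Control. Of 8 leukocyte markers, 4 held 3 counts or fewer in every sample and CD2 was at 0 throughout. LYZ held 2, 0 and 1 counts in Control replicates 1, 2 and 3 and 19, 25 and 15 in BRG1, and was called higher (edgeR adjusted p 0.00958). LYZ passed the low-count filter only through the BRG1 samples, so the call is a description. The summed level of the 8 markers, carried mostly by PTPRC, was 7.68 to 14.8 CPM in Control and 8.14 to 16.7 CPM in BRG1 samples. Summed fibroblast markers (4 genes) ranged from 26.3 to 29.4 CPM in Control and from 21.1 to 29.1 CPM in BRG1 samples. Summed granulosa markers (4 genes) ranged from 5.35 to 9.33 CPM and from 13.1 to 18.9 CPM, with FOXL2 and FSHR at 3 counts or fewer in every sample. CYP19A1, the aromatase gene, rose from 0.348, 0.488 and 0.688 CPM to 9.71, 5.62 and 5.52 CPM (log2 fold change 3.75, edgeR adjusted p 0.00072). The part of these markers in the results below was not tested. Replicate numbers paired the samples: the deviations of same-numbered Control and BRG1 samples from their group means correlated at 0.509, 0.530 and 0.585 across 14225 genes.

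The region before the start of TNFSF10 is shown because this gene had the widest contrast of the 9. It is the RefSeq window of GRCh38.p14 on the minus strand, chr3:172523476-172523680, which stops where the outermost annotated transcript of GENCODE release 44 begins, 45 bases before the RefSeq start. The capitals mark a match to TTTCNNTTTC, the core letters of an interferon-stimulated response element. The second line shows the match in the first CASP8 promoter window with 10 bases on either side, plus strand, chr2:201233450-201233479.
TNFSF10: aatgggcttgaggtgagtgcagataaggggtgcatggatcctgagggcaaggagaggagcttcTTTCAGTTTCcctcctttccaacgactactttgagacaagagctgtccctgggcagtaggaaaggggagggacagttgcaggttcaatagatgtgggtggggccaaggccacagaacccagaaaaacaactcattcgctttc
CASP8: gagtttttggTTTCTGTTTCaccttgtgtc
The match lay at positions -187 to -178 from the RefSeq start of TNFSF10, and at -3 to 6 from the first of 3 CASP8 starts. On either strand, 3.57% of 35116 promoter windows of 300 bases held TTTCNNTTTC. The 4 CFLAR windows and the FADD window held 0 matches. TTCNNNGAA, the letters bound by STAT dimers, had 0 matches in the TNFSF10 window. It was found in the first CASP8 window and in 7.66% of all windows. TGANTCA, the AP-1 letters, had 0 matches in the TNFSF10 window and was found in 7.71% of all windows. The FADD window held it, as did some but not all of the 3 CASP8 and 4 CFLAR windows. A gene with several windows has more chances of a match, so the share per window is not a background per gene. These matches are a description of letters and were not tested as sites.

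Whether BRG1 reexpression changed the ligand was examined first. TNFSF10 (chromosome 3, 172505508 to 172523475) held 0 counts in every Control sample. BRG1 replicates 1, 2 and 3 held 593, 410 and 149 counts, or 9.18, 7.39 and 4.89 CPM (mean 7.15 ± 2.15, SD, n = 3). The ligand transcript was thus detected in all BRG1 samples, with the highest level in replicate 1 and the lowest in replicate 3. Against a floor of 3 counts per Control library, the level was at least 104-fold higher, and TNFSF10 was the member called by edgeR without the replicate block (adjusted p 0.000417, 0.000144 with the block). No exon of another gene covers its exons (0% of exonic bases).

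Part of the interferon pathway, listed because it is known to induce TNFSF10, rose in the same samples. The list was chosen with earlier results of these data known, so its counts are a description. Of 10 tested genes of an 11-gene list, edgeR called 4 higher and 0 lower (background 9.23% and 0.984% of all tested genes). Before adjustment, 5 of these genes rose and 0 fell with an edgeR p under 0.05, a count that has no background here. DESeq2, which tested 11 genes of the list, called 4 higher and 0 lower (background 11% and 1.84%). With the replicate number as a block, edgeR and DESeq2 each called 6 higher and 0 lower. The backgrounds with the block were 13.3% higher and 5.50% lower for edgeR, and 13.4% and 6.62% for DESeq2. The median log2 fold change by edgeR without the block was 0.91, beside -0.04 over all tested genes. STAT2 and IRF9, transcription factors that act downstream of the type I interferon receptor, rose with log2 fold changes of 1.32 and 2.12 (edgeR adjusted p 0.00102 and 6.4e-05). IFNB1, the interferon beta gene, held at most 1 count in a Control sample and 109, 74 and 21 counts in BRG1 replicates 1, 2 and 3 (at least 18-fold higher against the floor). IFNB1 was among the genes called and passed the low-count filter only through the BRG1 samples. Like TNFSF10, IFNB1 was highest in BRG1 replicate 1 and lowest in BRG1 replicate 3. STAT2 (182, 183 and 216 CPM in BRG1 replicates 1, 2 and 3) and IRF9 (138, 165 and 139 CPM) did not have that order. FAS, a gene outside the interferon list, did (36.8, 29.2 and 20.9 CPM). The genes of the receptor, IFNAR1 and IFNAR2, had log2 fold changes of -0.08 and 0.07 and did not pass the test. IRF1 was at 141, 126 and 12.3 CPM in Control replicates 1, 2 and 3 and at 304, 362 and 49.1 CPM in the BRG1 samples of the same numbers. Its adjusted p was 0.492 without the block and 0.000557 with it. The part of interferon signaling in the TNFSF10 level was not tested.

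By Pearson correlation of log2(CPM + 1) over the 6 samples, the genes most like TNFSF10 were CST4, NID2, CST2, IFI44L and TGFA (r from 0.9997 to 0.9999). The likeness is not specific, because 289 genes had an r above 0.99 with it, and the points fall into the 2 transfection groups. IFI44L, an interferon-induced gene, was at 0.0803 CPM or lower in Control and at 62.4, 39.6 and 22.7 CPM in BRG1 replicates 1, 2 and 3.

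**Figure D1:**
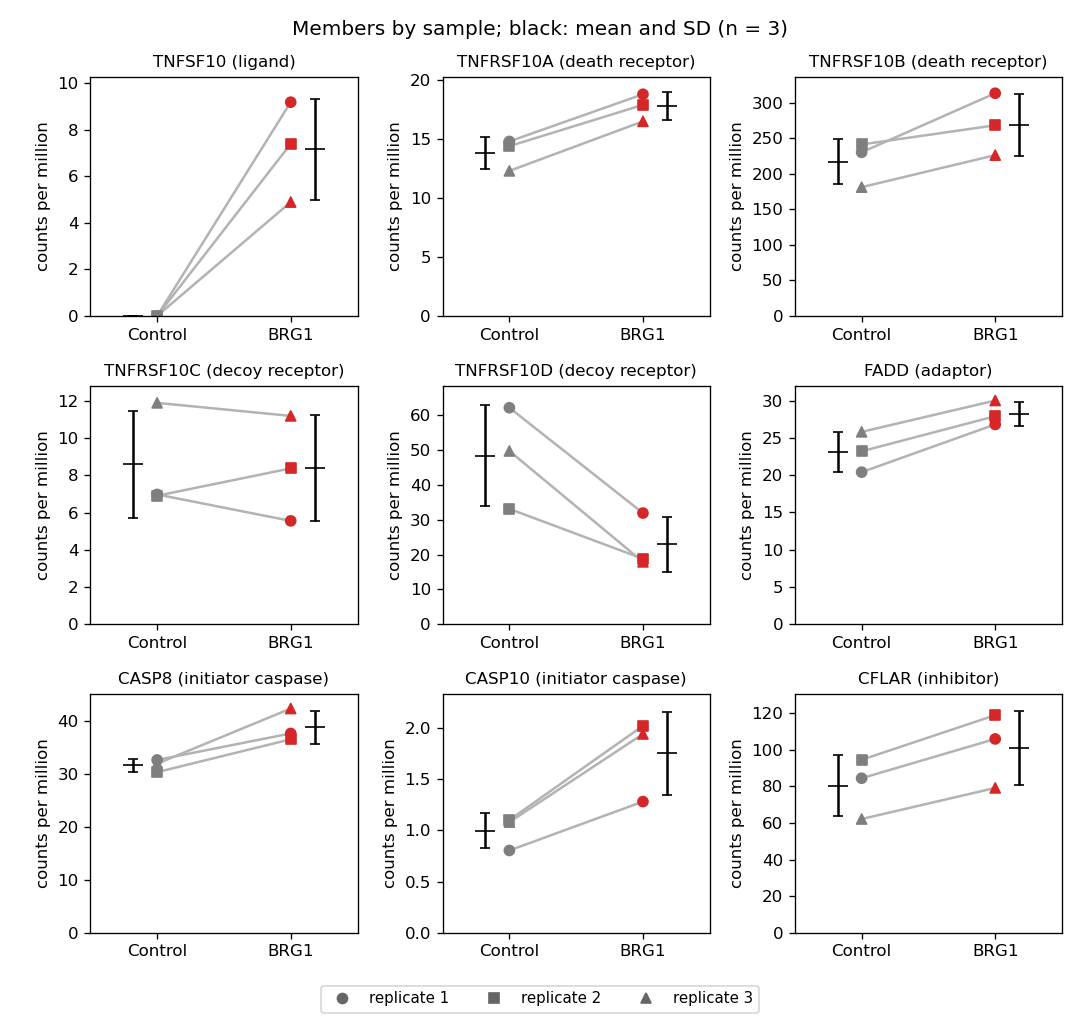
Levels of the 9 genes in CPM (vertical axes, each from 0) in Control and BRG1 samples, where marker shapes give the replicate number, gray lines join samples of the same number, and black bars are the mean and SD (n = 3). TNFSF10 starts from 0 in every Control sample, TNFRSF10D is lower in each BRG1 sample, and the other genes show smaller differences.

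The receptors differed in direction. TNFRSF10A, TNFRSF10B, TNFRSF10C and TNFRSF10D lie within 205 kb of chromosome 8 (23020133 to 23225102), in the order B, C, D, A. The death receptor gene TNFRSF10B was the most abundant member, at 230, 241 and 181 CPM in Control replicates 1, 2 and 3 and 313, 268 and 226 CPM in BRG1. The groups overlapped, but each BRG1 sample was above the Control sample of its number, by 1.36, 1.11 and 1.25-fold. TNFRSF10A, the other death receptor gene, was at 14.8, 14.4 and 12.3 CPM in Control and 18.8, 17.9 and 16.5 CPM in BRG1. Its groups did not overlap, and its folds within replicate numbers were 1.27, 1.24 and 1.35. Neither passed the edgeR test, with log2 fold changes of 0.36 ± 0.15 (SE) for TNFRSF10A and 0.31 ± 0.16 for TNFRSF10B (adjusted p 0.238 and 0.348). With the block these were 0.0638 and 0.0512, and DESeq2 with the block gave 0.0585 and 0.0143, so that of these fits only the last called TNFRSF10B.

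The decoy receptor gene TNFRSF10D was lower with BRG1. It was at 62.1, 33.1 and 49.7 CPM in Control replicates 1, 2 and 3, and at 31.9, 18.8 and 17.9 CPM in BRG1. Every BRG1 sample was below every Control sample, although the gap between the lowest Control and the highest BRG1 sample was small beside the spread within the groups. The log2 fold change was -1.07 ± 0.30 (SE; 95% interval -1.76 to -0.39), and edgeR did not call it (adjusted p 0.0648). The Control samples differed among themselves, and the same replicate number was highest in both groups. Within numbers the BRG1 level was 0.514, 0.569 and 0.360 of the Control level, and with the replicate block TNFRSF10D was called lower by edgeR (log2 fold change -1.08 ± 0.14, adjusted p 0.00159) and DESeq2 (adjusted p 4.3e-09). DESeq2 also called it without the block (adjusted p 0.00829).

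TNFRSF10C, a decoy receptor held by a lipid anchor, did not share that direction. Its levels were 6.98, 6.91 and 11.9 CPM in Control and 5.56, 8.38 and 11.2 CPM in BRG1, and BRG1 was above Control in replicate 2 and below it in replicates 1 and 3. The log2 fold change was -0.04 (95% interval -0.80 to 0.72). Transcripts of other genes on the same strand cover 33.0% of its exonic bases, so the division of its reads is uncertain. Opposite-strand transcripts, which these libraries cannot tell apart, cover 16.7% of the exonic bases of TNFRSF10A and 7.52% of those of TNFRSF10B, and no other gene covers exons of TNFRSF10D (0%). The 4 receptor genes also resemble each other in sequence, which adds to the uncertainty of each.

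The genes with levels most like TNFRSF10D over the 6 samples were RP11-293I14.2, GPD1L, ERLIN2, HACD2 and ANKS6 (r from 0.9847 to 0.9968). They are the top of a search over all tested genes with only 6 samples, and the likeness is of pattern and not of size. HACD2 was at 72.9, 69.1 and 71.4 CPM in Control and 68.9, 65.6 and 66.4 CPM in BRG1. RP11-293I14.2 was under 1 CPM in every sample. GPD1L was at 29.0, 23.1 and 25.4 CPM in Control and 22.2, 17.6 and 17.0 CPM in BRG1, with the same sample highest in each group as for TNFRSF10D.

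The balance of the receptors was then compared within each sample, where library size cancels. TNFRSF10D made up 19.8%, 11.2% and 19.5% of the counts of the 4 receptor genes in Control replicates 1, 2 and 3, and 8.64%, 6.02% and 6.57% in BRG1. TNFRSF10B made up 75.3% ± 5.55 of them in Control and 84.5% ± 1.21 with BRG1 (SD, n = 3). The log2 ratio of death to decoy receptor counts was 1.82, 2.67 and 1.65 in Control and 3.15, 3.39 and 3.06 in BRG1. It was thus higher in every BRG1 sample than in any Control sample, with a mean difference of 1.15 and differences within numbers of 1.32, 0.72 and 1.41. No test was applied to the ratio. Most decoy counts were of TNFRSF10D (mean 16.8% of the receptor counts in Control, beside 3.08% for TNFRSF10C). The ratio is therefore not independent of the TNFRSF10D levels given above. The difference between groups was larger than the SD of either group (0.55 in Control, 0.17 in BRG1).

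**Figure D2:**
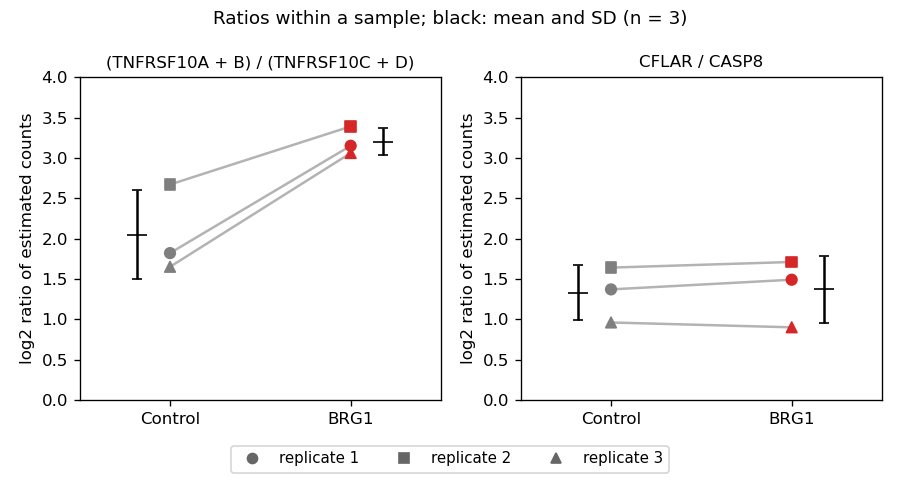
Log2 ratios of estimated counts within each sample (vertical axes) for death over decoy receptor genes and for CFLAR over CASP8, with marker shapes for replicate numbers, lines joining equal numbers and black bars for the mean and SD (n = 3). The receptor ratio moves from a mean of 2.05 in Control to 3.20 in BRG1, and the CFLAR ratio from 1.33 to 1.37.

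Downstream of the receptors, the adaptor, the caspases and their inhibitor had small log2 fold changes above 0. FADD (chromosome 11, 70203296 to 70207390) was at 20.4, 23.2 and 25.8 CPM in Control and 26.8, 27.9 and 30.0 CPM in BRG1 (log2 fold change 0.29, adjusted p 0.321 by edgeR). An opposite-strand transcript covers 59.2% of its exonic bases, so its value is uncertain. CASP8, CASP10 and CFLAR are neighbors within 246 kb of chromosome 2 (201116154 to 201361836). CASP8 was at 32.6, 30.3 and 31.9 CPM in Control and 37.6, 36.5 and 42.3 CPM in BRG1 (log2 fold change 0.30, adjusted p 0.215). The CASP8 groups did not overlap, nor did those of FADD.

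CASP10 was weakly expressed and had the largest log2 fold change of these 4 genes. It held 30, 43 and 66 counts in Control and 83, 112 and 59 in BRG1, or 0.803, 1.1 and 1.08 CPM against 1.28, 2.02 and 1.94 CPM. The log2 fold change was 0.80 ± 0.33 (SE) and was not called by edgeR with or without the block (adjusted p 0.219 and 0.093).

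The call of CFLAR depended on the pairing. The gene was at 84.5, 94.6 and 62.2 CPM in Control and 106, 119 and 79.2 CPM in BRG1, so that the groups overlapped and replicate 3 was lowest in both. Within replicate numbers the fold was 1.25, 1.26 and 1.27. The log2 fold change was 0.34 in both edgeR fits, with an adjusted p of 0.426 without the block and 0.0226 with it (0.00223 by DESeq2 with the block). The log2 ratio of CFLAR to CASP8 was 1.37, 1.64 and 0.96 in Control and 1.49, 1.71 and 0.90 in BRG1. The mean difference of 0.04 was within the spread between replicates (SD 0.34 and 0.42).

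Over all 9 members, edgeR without the block called 1 higher and 0 lower, where 9.23% and 0.984% of the 14225 tested genes were called. At an unadjusted p under 0.05, 4 members were higher and 1 was lower, and no share over all genes was taken at that threshold. DESeq2 without the block called 1 higher and 1 lower (TNFSF10 and TNFRSF10D), with a background of 11% and 1.84%. With the block, edgeR called 2 higher and 1 lower (TNFSF10, CFLAR and TNFRSF10D), with a background of 13.3% and 5.50%. DESeq2 with the block called 3 higher and 1 lower, the third being TNFRSF10B, with a background of 13.4% and 6.62%. Groups did not overlap in 5 members with BRG1 above Control (background 15.6%) and in 1 member with BRG1 below it (background 11%). In 7 members every BRG1 sample was above the Control sample of its number (background 26.1%), and in 1 every BRG1 sample was below it (background 30%). Since the contrast was known when the members were chosen, nothing is read from these counts. The median log2 fold change of the 9 was 0.31, beside -0.04 over all tested genes. All 9 passed the low-count filter of 10 counts in 3 samples, TNFSF10 only through the BRG1 samples.

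**Figure D3:**
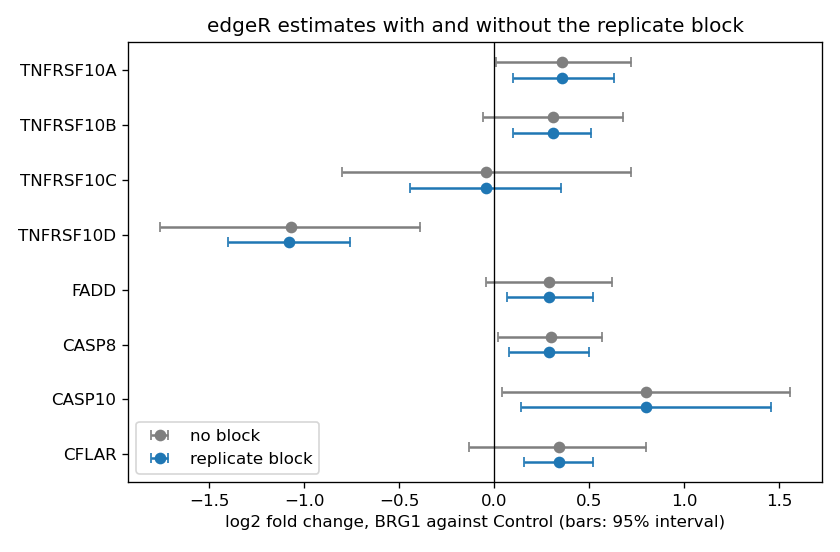
Log2 fold changes of BRG1 against Control (horizontal axis) from edgeR with 95% intervals, without the replicate block (gray) and with it (blue), for the 8 members detected in Control. The estimates hardly differ between the fits while the intervals narrow with the block, and TNFRSF10D is the member whose intervals lie below 0 in both.

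Levels were compared between members after division by the length of the MANE Select transcript of GENCODE release 44, as CPM per kilobase. In Control, TNFRSF10B led at 54.4 ± 7.99, followed by TNFRSF10D (13.7 ± 4.12), FADD (13.5 ± 1.58) and CASP8 (11.9 ± 0.443), which do not differ beyond their spread (SD, n = 3). TNFRSF10C, CFLAR and TNFRSF10A followed at 6.16 ± 2.05, 5.50 ± 1.13 and 5.14 ± 0.499, again within their spread. CASP10 was at 0.175 ± 0.0293 and TNFSF10 was at 0. In BRG1 samples TNFRSF10B again led (67.3 ± 10.9), ahead of FADD (16.5 ± 0.952) and CASP8 (14.6 ± 1.16). TNFRSF10D, at 6.47 ± 2.22, now lay with CFLAR (6.94 ± 1.39), TNFRSF10A (6.59 ± 0.431) and TNFRSF10C (6.01 ± 2.02), and TNFSF10 reached 3.81 ± 1.15. The CFLAR level rests on a transcript of 14612 bases, and cells that use shorter transcripts would have a higher level per kilobase than this.

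The wider death pathway was described with a list of 32 genes covering related receptors, further caspases, the mitochondrial step and its inhibitors. Of 31 tested genes, edgeR called 5 higher and 1 lower, and 25 did not pass, beside a background of 9.23% higher and 0.984% lower. DESeq2 called 6 higher and 1 lower (background 11% and 1.84%). Their median log2 fold change was 0.06. With the block edgeR called 6 higher and 3 lower (background 13.3% and 5.50%), and DESeq2 8 and 3 (background 13.4% and 6.62%).

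Among death receptor genes outside the 9, FAS, the receptor of FAS ligand, rose from 11.1, 10.3 and 11.1 CPM to 36.8, 29.2 and 20.9 CPM (log2 fold change 1.42, edgeR adjusted p 0.00444), while FASLG held at most 1 count in any sample. TNFRSF11B, which encodes osteoprotegerin, a secreted receptor that can also bind TRAIL, rose from 2.26 ± 0.383 to 6.74 ± 1.98 CPM (SD, n = 3; log2 fold change 1.58, edgeR adjusted p 0.0121). The transcript of the soluble TRAIL-binding receptor thus rose, while that of the membrane decoy TNFRSF10D was lower but not called by edgeR without the block. The transcript of TNFRSF10C, the other membrane decoy, had a log2 fold change of -0.04. TNFRSF1A, a receptor of tumor necrosis factor named after its values were seen, was not called by edgeR without the block (log2 fold change 0.58, adjusted p 0.0743). It was called higher by edgeR with the block (adjusted p 0.00715) and by DESeq2 without it (adjusted p 0.0246).

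The gene called lower in this list was DFFA, which encodes the inhibitor of the apoptotic nuclease DFFB. It fell from 164, 158 and 137 CPM to 114, 113 and 116 CPM (log2 fold change -0.42, edgeR adjusted p 0.0450). CASP6, a caspase that acts after the initiators, had a log2 fold change of -0.22 and did not pass the test.

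At the mitochondrial step, genes of opposing roles rose together. BCL2L1, whose main product BCL-XL blocks apoptosis, rose from 59.9, 68.2 and 57.0 CPM to 303, 217 and 147 CPM (log2 fold change 1.85, edgeR adjusted p 0.00234). PMAIP1 (NOXA), a BH3-only activator of apoptosis, rose from 2.33, 3.11 and 1.52 CPM to 10.4, 7.23 and 4.01 CPM (log2 fold change 1.65, edgeR adjusted p 0.0437). BID, which links CASP8 to mitochondria once cleaved, was at 26.4, 27.7 and 25.7 CPM in Control and 22.5, 20.0 and 23.4 CPM in BRG1, a log2 fold change of -0.28 that did not pass (adjusted p 0.306). XIAP, a caspase inhibitor, had a log2 fold change of -0.25 (edgeR adjusted p 0.477). BIRC5 (survivin) and BBC3 (PUMA), named after their values were seen, were called lower with the block only (log2 fold changes -0.68 and -0.37, edgeR adjusted p 0.00783 and 0.0237).

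A list of 6 stress response genes was added because several of them are known to induce TNFRSF10B. edgeR without the block called 0 higher and 0 lower (background 9.23% and 0.984%), with 0 at an unadjusted p under 0.05 in either direction. DESeq2 without the block also called 0 (background 11% and 1.84%). In a list of 6 genes, 0 calls is near these shares, so nothing is read from it. The stress gene DDIT3 (CHOP) was at 193, 225 and 30.4 CPM in Control replicates 1, 2 and 3 and at 156, 193 and 46.6 CPM in BRG1. Replicate 3 was thus low in both groups, as it was for TNFRSF10B and CFLAR. ATF3, at 48.1 and 90.5 CPM in replicate 3 and 275 or more elsewhere, was called higher with the block (log2 fold change 0.55, edgeR adjusted p 0.0267). MDM2 and CDKN1A had log2 fold changes of -0.22 and -0.01. The part of the replicate differences in the receptor levels was not tested.

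**Figure D4:**
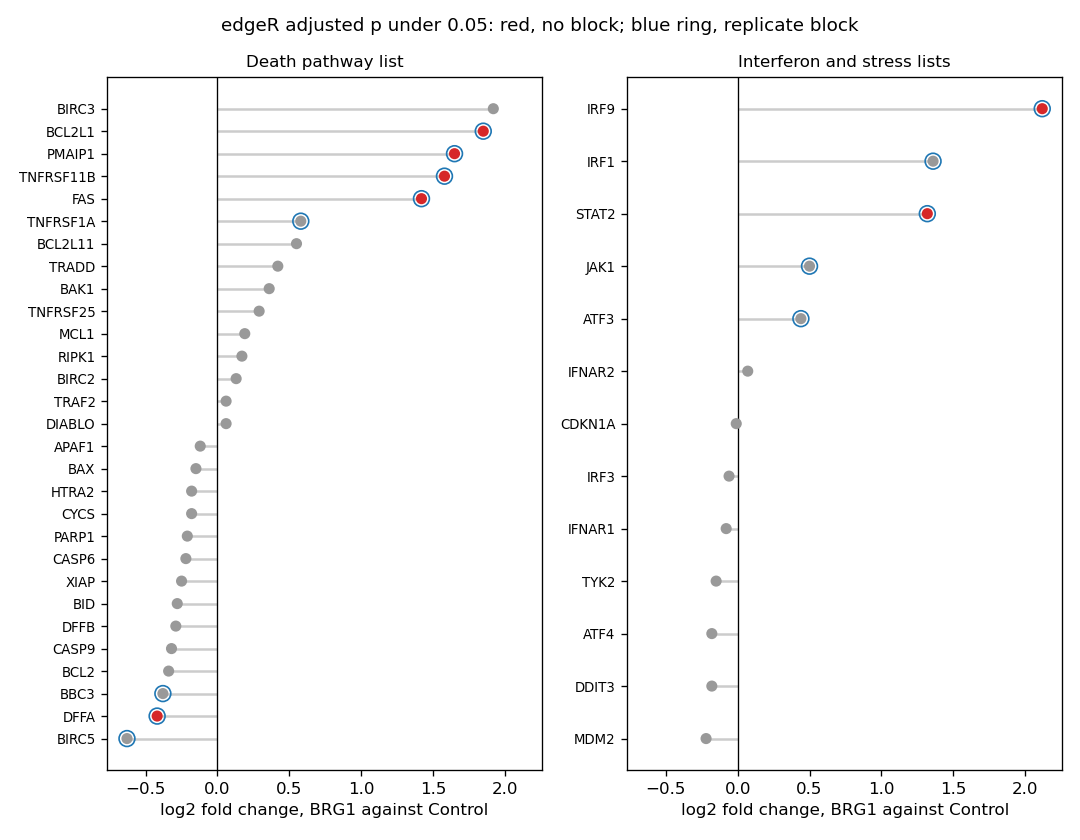
Log2 fold changes of BRG1 against Control (horizontal axes, edgeR without the block) for tested genes of the death pathway list and of the interferon and stress lists, leaving out IFNB1 and some other list genes. Red points have an adjusted p under 0.05 without the block and blue rings with it; BCL2L1, PMAIP1, TNFRSF11B and FAS carry both marks on the higher side.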

How the data were processed

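RNA-seq of 3 Control and 3 BRG1 cultures, labeled as biological replicates, was used. The authors aligned reads with STAR (2.5.3a), quantified them with Salmon (0.8.2) on hg38 and combined transcripts per gene with tximport. The deposited values are expected counts per gene symbol (estimated counts scaled from TPM by transcript length and library total), and the libraries do not keep strand. Values were rounded and the 14225 genes that reached 10 counts in 3 or more samples were tested with the quasi-likelihood test of edgeR (4.0.16, R 4.3.3; TMM factors, Benjamini-Hochberg adjustment, calls under 0.05). Standard errors were the absolute log2 fold change over the square root of F. DESeq2 (1.42.0), which the study names for its own tests, and limma-voom (3.58.1) were alternatives, as were RLE factors, other filters, the replicate number as a block and leaving out each sample. The pairing was accepted because all 3 same-number correlations exceeded 0.1. On simulated data in which 200 genes differed by a log2 fold change of 2, edgeR over 14331 genes recovered 91.0% with 6.19% of calls false (88.0% and 4.86% with the block), and DESeq2 over 16756 genes recovered 92.5% with 18.5% false (93.0% and 24.7% with the block, over 16067 genes). The simulation held no effect of the replicate number and so does not show how the fits with the block perform here. A floor of 3 counts covers counting error only. Members, lists and named genes (all members, list genes called up to 6 per list, BID, XIAP, TNFRSF11B, the 5 genes most like TNFSF10 and TNFRSF10D) were chosen with earlier results of these data known. Some list genes are counted in their lists but not reported here. Promoter windows came from RefSeq (GRCh38.p14), where TNFSF10, FADD, CASP8 and CFLAR had entries, and gene positions from GENCODE release 44.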

Additional observations from a re-analysis of the deposited data

How the results depend on the processing

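TNFSF10 was called higher in each fit that tested it. With 0 counts in every Control sample, it enters a fit only through the BRG1 samples. Its calls here, with either filter, are therefore a description and not added support. It could not be tested when a BRG1 replicate was left out, because fewer than 3 samples then held 10 counts, so members called higher (1) ran from 0 to 1 over the leave-one-out fits. With the filter lowered to 2 samples, an alternative chosen after seeing the data, it was called in all 6 such fits (adjusted p from 0.000101 to 0.00385) and the count stayed at 1. Members called higher were 2 with edgeR and the replicate block and 3 with DESeq2 and the block. TNFRSF10D, whose adjusted p was 0.0648, was called lower with the block by edgeR (log2 fold change -1.08) and DESeq2 (-1.07), with DESeq2 alone (-1.06) and with no low-count filter (-1.08, adjusted p 0.0458), so members called lower (0) were 1 in each. TNFRSF10D was not called by limma-voom (adjusted p 0.0756), nor by edgeR with RLE factors (adjusted p 0.0757) or a filter of a mean of at least 10 counts (adjusted p 0.0611). Without a replicate its log2 fold change ran from -1.38 (without BRG1 replicate 1, adjusted p 0.0263) to -0.85 and its adjusted p up to 0.315, and it was also called without Control replicate 2 (-1.29, adjusted p 0.0468), so the count ran from 0 to 1. With the filter of 2 samples the range was -1.39 to -0.86. TNFRSF10B was called with DESeq2 and the block (0.32), and CFLAR with the block by edgeR (0.34) and DESeq2 (0.35). Without a replicate neither was called by edgeR, and the log2 fold change ran from 0.20 to 0.47 for TNFRSF10B and from 0.18 to 0.53 for CFLAR, lowest without Control replicate 3 and highest without BRG1 replicate 3 for both. TNFRSF10C changed sign when a replicate was left out, from -0.27 to 0.27, for example without Control replicate 3 (0.27) or BRG1 replicate 1 (0.19), and from -0.28 to 0.26 with the filter of 2 samples (0.26 and 0.18). The CFLAR to CASP8 difference (0.04) ran from -0.14 (without Control replicate 3) to 0.28, and the receptor ratio difference (1.15) from 0.95 to 1.46. Taken within replicate numbers as the replicate block, both ratio differences are the same by arithmetic (0.04 and 1.15).

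Over all genes, 1313 were called higher and 140 lower. Higher calls were 2095 with DESeq2 and the block, and 634 to 1209 without a replicate. Lower calls were 294 with DESeq2, 783 with edgeR and the block, 1035 with DESeq2 and the block, and 22 to 188 without a replicate. Pathway list calls were 5 higher (8 with DESeq2 and the block, 3 to 5 without a replicate) and 1 lower (3 with the block by either tool, 0 to 1 without a replicate, and 1 only without Control replicate 3). Stress list calls were 0 higher, and 1 with the block by either tool. The cause was not tested, other than the filter for TNFSF10. Depth limits CASP10 most among members detected in Control, with 30 to 112 counts per sample.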
